A study of Mus musculus with 8 samples.

Results

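Genes of the Wnt pathway, 10 of the 32285 genes in the tables, were followed through the epithelial cells of the mouse tongue. The 6 antagonists were Sfrp1, Sostdc1, Notum, Apcdd1, Dkk3 and Wif1, the 2 ligands were Wnt4 and Wnt10a, and the remaining pair was Axin2, a feedback target, and Lgr6, an R-spondin receptor. The genes were chosen by their role and by their epithelial levels in these same libraries, so the differences between groups given below describe the libraries and are not independent evidence of a pattern. Epithelial cells were taken as cells in which the UMIs (unique molecular identifiers, each standing for 1 captured transcript) of Krt5, Krt14, Krt15, Krt13 and Krt6a together made at least 0.5% of the total and in which Ptprc, which marks leukocytes, had none. This rule held 12957 of the 25199 cells within the cell limits of the study and of 42550 barcodes in all.

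Every animal carried Krt14-CreERT and LSL-rtTA, so that tamoxifen given into the tongue removed a stop cassette in Krt14-expressing cells and a doxycycline diet then switched on whichever transgenes were present. N animals (Krt14-CreERT/LSL-rtTA) had no effector. E animals (tetON_E6-E7) expressed the papillomavirus oncogenes, Y animals (tetON_YAP1S127A) expressed a YAP1 that escapes inhibition by the Hippo kinases, and EY animals carried both. The methods add a tetON H2B-GFP reporter in all 4 groups, which were littermates, and the tissue was taken at day 15. Each group had 2 libraries of sorted viable cells, named here N1, N2 and so on, and the title of N2 carries 2 animal numbers, so that this library may pool animals. The Krt14 promoter drives the CreERT, so induction is meant for Krt14-expressing cells and their descendants, although every cell carries the alleles.

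Wnt proteins are secreted lipid-modified ligands that bind Frizzled receptors together with the co-receptors Lrp5 and Lrp6, after which beta-catenin accumulates and works with TCF and LEF factors in the nucleus. Antagonists act outside the cell: some bind the ligand, some block the co-receptor, and Notum removes the lipid. In stratified epithelia Wnt signalling is known for maintaining basal progenitors, and several antagonists are themselves switched on by the pathway.

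Promoter sequence from the RefSeq table (GRCm38.p6) could be matched for 4 of the 10 genes, Axin2, Lgr6, Wnt4 and Wif1. The windows of Axin2 and Lgr6 are shown because Axin2 is the textbook transcriptional target of beta-catenin and Lgr6 the receptor that marks a progenitor pool, and because both lie wholly upstream of the annotated transcript. Each runs 5′ to 3′ over the 250 bases before the start site, with matches to the GC box GGGCGG, on either strand, in capitals.
Axin2, chr11:108920099-108920348, plus strand: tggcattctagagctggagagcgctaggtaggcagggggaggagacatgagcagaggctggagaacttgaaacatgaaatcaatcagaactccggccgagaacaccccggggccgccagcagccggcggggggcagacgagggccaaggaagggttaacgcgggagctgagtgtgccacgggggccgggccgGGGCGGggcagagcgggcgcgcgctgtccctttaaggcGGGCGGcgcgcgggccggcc
Lgr6, chr1:135105277-135105526, minus strand: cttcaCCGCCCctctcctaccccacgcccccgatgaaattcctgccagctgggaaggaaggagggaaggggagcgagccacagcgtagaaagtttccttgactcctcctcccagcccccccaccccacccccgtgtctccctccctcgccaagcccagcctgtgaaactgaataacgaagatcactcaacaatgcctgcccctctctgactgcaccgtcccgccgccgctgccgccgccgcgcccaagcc
The Axin2 window is 69.2% G and C and holds the GC box at 58 and 20 bases before the start, and the Lgr6 window is 65.2% G and C and holds it once, on the opposite strand, at 245 bases. The letters CTTTGA (the TCF/LEF core) and GGAATG (the TEAD core, TEAD being the DNA-binding partner of YAP), searched on both strands, are in none of the 4 windows. Of all 32851 promoter windows of this length, 13.8% hold CTTTGA, 12.6% hold GGAATG and 32.7% hold the GC box. These matches describe letters only and say nothing of binding.

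The libraries had 2916 to 8139 barcodes, and the epithelial cells ranged from 170 in EY1 to 4055 in E1, with 2454816 UMIs in EY1 and 55154619 in E1. The median epithelial cell had 12575 to 23570 UMIs. UMIs of at least 1 of 9 further immune markers were found in 11.3 to 32.5% of the epithelial cells of the libraries without the YAP transgene and in 56.5 and 19.1% of those of Y1 and Y2 and 62.4 and 25.8% of those of EY1 and EY2, and the summed immune list was 19.1 to 31.7 CPM (counts scaled to the same total in each library) without and 23.0 to 228 CPM with it. The fibroblast list summed to 725 to 1227 CPM without and 28.3 to 805 CPM with YAP, nearly all of it Dcn, while Col1a1 reached 2.04 CPM at most and Cdh5 (endothelium) and Tyrp1 (melanocytes) had no UMI. Among markers of basal cells, Trp63, a transcription factor of the basal layer, was 195 to 344 CPM without and 60.3 to 163 CPM with YAP, with no overlap. In EY2 Krt15 was 552 and Col17a1 82.0 CPM, where the libraries without YAP had at least 3074 and 325. Krt5, Krt14, Itga6 and Itgb4 overlapped, Krt14 being 8177 to 10660 CPM without and 8432 to 11230 CPM with YAP. The summed basal list overlapped too, at 16284 to 19656 CPM without and 15426.5 to 18899 CPM with YAP. Krt8 and Krt18, keratins of simple and glandular epithelia, were 164 and 194 CPM in EY1 and 36.2 and 78.1 CPM in EY2, where no other library exceeded 14.3 and 21.8 CPM. The other glandular markers listed did not follow. Krt7 was 14.3 CPM in EY1 and 6.65 CPM in EY2, against 8.59 to 54.4 CPM without YAP. Krt19 was 18.7 and 38.1 CPM, against 6.71 to 108 CPM without YAP, and Aqp5 was at most 0.490 CPM in any library. The part of these differences in the results was not tested. No doublet caller was used, and 2 to 19 barcodes were shared by any pair of libraries. Within 0.1 percentage points of the keratin threshold, 51 cells lay just inside and 47 just outside.

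Yap1 itself was read first. Epithelial Yap1 was 35.1 and 40.0 CPM in N, 32.8 and 47.8 CPM in E, 211 and 452 CPM in Y, and 216 and 166 CPM in EY. All 4 libraries labelled with the YAP transgene lay above all 4 without it, as their labels say, and E6-E7 transcripts were not analysed here. The counts were made on the mouse genome, so this row is of the mouse gene. The study's transgene-specific primers are named for human YAP1, and it aligned the transgene sequences separately. How fully this row counts transgene transcripts was not measured. In cells with keratins under 0.5% and no Ptprc, Yap1 was 14.0 to 37.8 CPM in N and E, 36.5 and 374 CPM in the Y libraries, and 23.7 and 125 CPM in the EY libraries. High Yap1 was thus not limited to cells taken as epithelial. The low-keratin cells of Y2 also had 2993 CPM of Col1a1, a collagen of connective tissue. Both values are sums over the class, and whether the same cells held both was not tested.

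Levels below are CPM of the UMIs summed over the epithelial cells of a library, scaled by TMM (a normalisation for library composition) and fitted with the quasi-likelihood test of edgeR over 13555 genes, with Benjamini-Hochberg adjusted p. The YAP effect set Y and EY against N and E, with the E6-E7 transgene in the model. The p-values measure the spread between these libraries. In summed counts, fewer expressing cells and less RNA per cell cannot be told apart.

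The antagonists Sfrp1, Sostdc1 and Dkk3 fell and the ligand Wnt4 rose with the YAP transgene. Between the 4 libraries with it and the 4 without, 4 of the 10 genes lay wholly below and 1 wholly above, where 10.5% of all tested genes lay wholly below and 9.41% wholly above. In the YAP effect 3 of the 10 genes fell (3.72% of all tested genes fell) and 1 rose (5.26% rose, 8.98% moved either way), and the median of the 10 was -1.52 on the log2 scale against -0.03 over all tested genes. In EY against N, 5 fell (9.5% of all tested genes) and 1 rose (9.31%, 18.8% either way), with medians of -2.47 and -0.05. In Y against N, 1 rose (0.384% of all tested genes) and 0 fell (0.0738%, and 0.457% in either direction), with medians of -0.73 and 0.00 for the 10 and for all genes, and 4 of the 10 had an unadjusted p under 0.05, as had 12.2% of all tested genes. These comparisons share the N libraries.

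**Figure D1:**
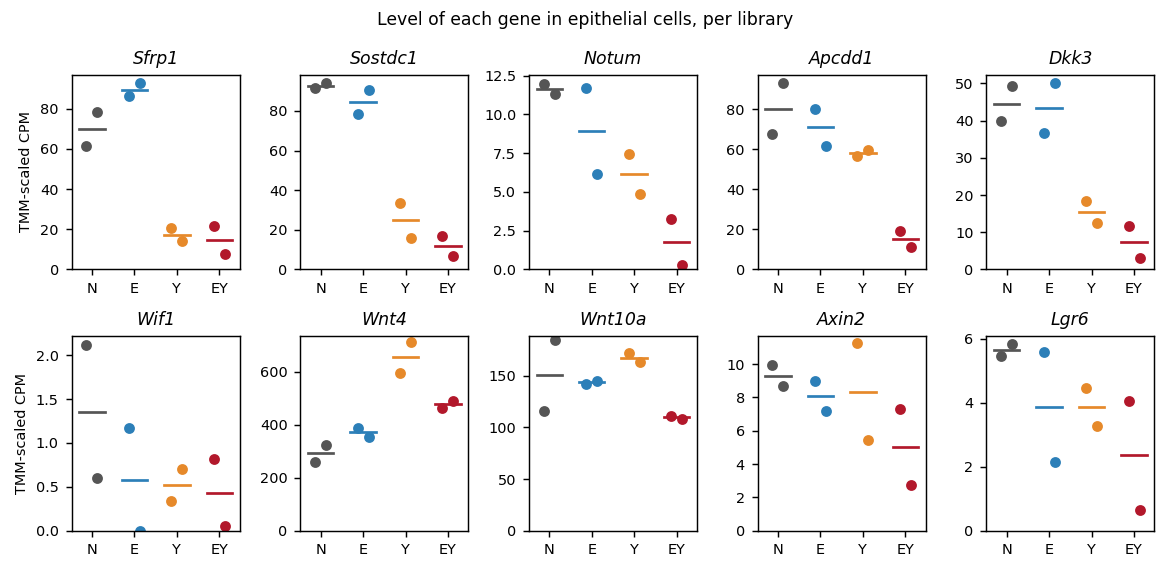
TMM-scaled CPM in epithelial cells (y axis, linear from 0) in each library (points) of N, E, Y and EY, with the group mean as a bar; each panel has its own scale. Sfrp1, Sostdc1 and Dkk3 sit low in all 4 Y and EY libraries, Apcdd1 is lowest in EY at 19.1 and 10.98 CPM, and Wnt4 is highest in Y at 595 and 713 CPM.

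Sfrp1 (secreted Frizzled-related protein 1, which binds Wnt ligands; chr8:23411502-23449632, plus strand, GRCm38) was at 61.6 and 78.4 CPM in N, 86.2 and 92.8 in E, 20.5 and 14.1 in Y, and 21.5 and 7.94 in EY. Every library with YAP lay below every library without it, and Y and EY overlapped each other. The mean was 70.0 ± 11.9 in N, 89.5 ± 4.67 in E, 17.3 ± 4.55 in Y and 14.7 ± 9.61 CPM in EY (SD, n = 2). The YAP effect was -2.36 (log2, SE 0.31), a 5.13-fold lower level (edgeR adjusted p = 0.00583). The EY difference from N was -2.43 (SE 0.44, edgeR adjusted p = 0.0169), while the Y difference of -2.01 (SE 0.40) had an edgeR adjusted p of 0.0990 and so did not pass. The YAP effect on Sfrp1 passed with each library left out in turn, whereas the EY difference did not pass without N1, N2 or EY2, and was -1.71 without EY2.

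Sostdc1 (also called ectodin or WISE, a secreted antagonist of BMP and of Wnt co-receptors, chr12:36314139-36318452, plus strand) had 91.4 and 94.0 CPM in N, 78.6 and 90.5 in E, 33.4 and 16.04 in Y, and 16.7 and 6.78 in EY. Both Y and both EY libraries were below both N and both E libraries, and the lower Y library overlapped EY. Its YAP effect was -2.41 (log2, SE 0.36, 5.32-fold lower, edgeR adjusted p = 0.00886), and EY against N was -3.19 (SE 0.48, 9.10-fold lower, adjusted p = 0.0113). Y against N was -1.90 (SE 0.43, edgeR adjusted p = 0.118). Its YAP effect passed in each of the 8 fits that left out a library, and the EY difference did not pass without N1 or EY2, and was -2.49 without EY2.

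Dkk3 (a divergent Dickkopf protein whose action on Wnt depends on the cell; chr7:112116017-112159057, minus strand) had 39.8 and 49.3 CPM in N, 36.8 and 50.1 in E, 18.5 and 12.5 in Y, and 11.8 and 3.15 in EY. The groups with YAP did not overlap those without. The YAP effect was -2.10 (log2, SE 0.42, 4.30-fold lower, edgeR adjusted p = 0.0244) and EY against N was -2.97 (SE 0.56, 7.83-fold lower, adjusted p = 0.0187). Dkk3 in Y against N was -1.52 (SE 0.48, edgeR adjusted p = 0.247). The YAP effect on Dkk3 did not pass without E1 (edgeR adjusted p = 0.0601) or without Y2 (0.0669), and EY against N did not pass without N1 (0.0808), N2 (0.0724) or EY2 (0.0772), and was -1.92 without EY2.

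Apcdd1 (a membrane glycoprotein that binds Wnt and Lrp5; chr18:62922231-62961179, plus strand) differed from the 3 above in Y. It was at 67.5 and 93.3 CPM in N, 80.1 and 61.9 in E, 56.5 and 59.7 in Y, and 19.1 and 10.98 in EY. Both EY libraries lay well below all others, while Y lay just below the lowest E library. The YAP effect of -1.33 (log2, SE 0.38) had an edgeR adjusted p of 0.0626, whereas EY against N was -2.52 (SE 0.30, 5.72-fold lower, edgeR adjusted p = 0.00799). Apcdd1 in Y against N was -0.46 (SE 0.27, adjusted p = 0.553). The test of whether both transgenes together departed from the log2 effects of each added up gave -1.88 (SE 0.40, unadjusted p = 0.00176, edgeR adjusted p = 0.341). The EY difference of Apcdd1 did not pass without N1 (edgeR adjusted p = 0.0562) or without EY2 (0.0576).

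Notum (a secreted carboxylesterase that removes the lipid from Wnt, and a known target of the pathway; chr11:120653788-120661175, minus strand) had 11.99 and 11.3 CPM in N, 11.7 and 6.14 in E, 7.42 and 4.88 in Y, and 3.25 and 0.312 in EY. EY was lowest and did not overlap the other groups, and E and Y overlapped. The EY values rest on 8 UMIs in EY1 and 11 in EY2. EY against N was -3.96 (log2, SE 0.92, 15.5-fold lower, edgeR adjusted p = 0.0288), and without EY2 it was -1.85 (edgeR adjusted p = 0.166). It also did not pass without N1 (adjusted p = 0.118) or N2 (0.0894). The YAP effect of Notum, -1.79 (SE 0.66), had an edgeR adjusted p of 0.111.

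Wif1 (Wnt inhibitory factor, which binds Wnt ligands directly; chr10:121033960-121100650, plus strand) was near the limit of counting. It had 107 and 5 UMIs in N, 67 and 0 in E, 8 and 14 in Y, and 2 and 2 in EY. The 0 in E2 allows up to 0.248 CPM (3 UMIs; counting error only). The groups overlapped, and the YAP effect of -1.71 (log2, SE 0.98, edgeR adjusted p = 0.255) could not be told from 0 at this depth.

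Of the ligands, Wnt4 moved the other way. Wnt4 (chr4:137277489-137299726, plus strand) is a ligand best known for signalling that need not use beta-catenin. It had 261 and 324 CPM in N, 389 and 356 in E, 595 and 713 in Y, and 465 and 491 in EY. The 4 groups did not overlap and ran from N through E and EY to Y, with means of 292 ± 44.0, 373 ± 23.7, 478 ± 18.3 and 654 ± 83.4 CPM (SD, n = 2). The E step above N was 0.35 (log2, SE 0.16, edgeR adjusted p = 1) and did not pass. The YAP effect was 0.76 (SE 0.18, 1.69-fold, edgeR adjusted p = 0.0379), Y against N 1.16 (SE 0.16, 2.24-fold, adjusted p = 0.0380) and EY against N 0.71 (SE 0.16, 1.63-fold, adjusted p = 0.0277). These calls on Wnt4 lay close to the threshold: the YAP effect did not pass without N1, N2, E1, E2, Y2 or EY2, its edgeR adjusted p then being 0.0525 to 0.0828. Y against N failed without any library but Y1, with an edgeR adjusted p of 0.0568 to 0.315, and EY against N failed without N1 (0.145), N2 (0.0769) or EY2 (0.137).

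Wnt10a (chr1:74791516-74804179, plus strand), a canonical ligand of epithelial appendages whose loss alters taste papillae and teeth, showed no such difference. It had 116 and 185 CPM in N, 142 and 145 in E, 172 and 163 in Y, and 111 and 109 in EY. EY was the lowest group, and the N libraries alone spanned nearly all of the rest. The YAP effect was -0.11 (log2, SE 0.17, edgeR adjusted p = 0.672), Y against N 0.16 (SE 0.21) and EY against N -0.45 (SE 0.21, adjusted p = 0.156).

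Axin2 (a scaffold of the complex that destroys beta-catenin, and the usual reporter of the pathway; chr11:108920349-108950783, plus strand) had 9.94 and 8.70 CPM in N, 8.98 and 7.17 in E, 11.3 and 5.43 in Y, and 7.31 and 2.75 in EY. Y alone spanned most of the range, and the groups overlapped except that both EY libraries lay below both N libraries. The YAP effect was -0.50 (log2, SE 0.35, edgeR adjusted p = 0.354) and EY against N was -1.17 (SE 0.52, adjusted p = 0.141). Axin2 therefore did not pass in either direction.

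Lgr6 (a receptor for R-spondins, which enhance Wnt signalling; chr1:134983301-135105276, minus strand) had 5.47 and 5.84 CPM in N, 5.59 and 2.15 in E, 4.45 and 3.27 in Y, and 4.06 and 0.652 in EY. E and EY each held a high and a low library, so the groups with and without YAP overlapped. The YAP effect was -0.87 (log2, SE 0.53, edgeR adjusted p = 0.279), and EY against N was -1.97 (SE 0.85, adjusted p = 0.131).

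The E6-E7 transgene alone moved none of the 10 genes past the test. In E against N 0 passed (0.243% of all tested genes in either direction, 0.236% higher and 0.00738% lower), 0 of the 10 had an unadjusted p under 0.05 (3.73% of all tested genes had), and DESeq2 also called 0. The medians were -0.15 for the 10 genes and -0.01 over all genes. Across all 8 libraries the E6-E7 effect called 0 (0.406%), with medians of -0.62 and -0.03, 1 of the 10 genes (Apcdd1, -1.04, edgeR unadjusted p = 0.0252) under 0.05 before adjustment, near the 11.5% of all tested genes, and 0 by DESeq2. No gene's 4 libraries with E6-E7 lay wholly apart from the 4 without, where 2.23% of all tested genes lay wholly above and 1.91% wholly below. Whether the transgenes combined by more or less than their sum was tested by edgeR with 0 of the 10 called (0% of all tested genes), 3 (Apcdd1, Wnt4 and Notum) at an unadjusted p under 0.05, where 11.5% of all tested genes were, and 1 by DESeq2.

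**Figure D2:**
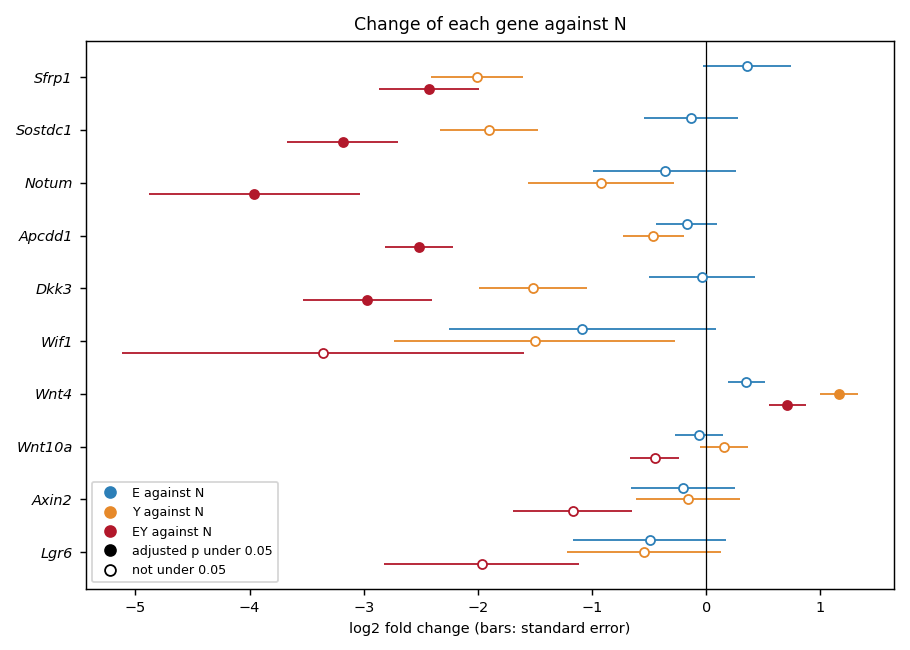
Log2 fold change (x axis) of each gene in E, Y and EY against N, with the standard error as a bar and filled points where the edgeR adjusted p is under 0.05. The EY points of Sfrp1, Sostdc1, Notum, Apcdd1 and Dkk3 are filled and lie between -2.43 and -3.96, and Wnt4 is filled on the right in Y (1.16) and EY (0.71).

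The epithelial cells were next divided by keratin. Basal keratin cells had more Krt5, Krt14 and Krt15 than Krt13 and Krt4 UMIs, and made 86.3 to 95.6% of the epithelial cells of a library. The others, as few as 16 in EY1, are called differentiation keratin cells. Krt5 and Krt14 mark the proliferating basal layer and Krt4 and Krt13 the layers above it. With the library as a block, 9 of the 10 genes were higher in basal keratin cells (17.6% of 11078 tested genes were, 13.9% were lower and 31.5% differed either way), with medians of 1.92 and 0.04 for the 9 and for all genes, and Wif1, at 8 UMIs in all differentiation keratin cells, was not tested.

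The steepest was Sostdc1, at 6.72 to 108 CPM in the basal keratin cells of the 8 libraries and 0 to 14.4 in the others (log2 difference 3.07, SE 0.17, edgeR adjusted p = 6.06e-08). Lgr6 (2.82, SE 0.30), Dkk3 (2.60, SE 0.21), Axin2 (1.99, SE 0.23), Wnt10a (1.92, SE 0.21), Notum (1.72, SE 0.24) and Sfrp1 (1.34, SE 0.17) followed. Wnt4 (0.57, SE 0.11, edgeR adjusted p = 0.00143) and Apcdd1 (0.51, SE 0.13, edgeR adjusted p = 0.00895) differed least and were read in both classes. Wnt4 was 276 to 740 CPM in basal keratin cells and 114 to 609 in differentiation keratin cells, and in the latter all 4 libraries with YAP (345 to 609 CPM) lay above the 4 without (114 to 231). Taking the basal keratin cells alone left the calls of the YAP effect at 4 and those of EY against N at 6 of the 10 genes. Over all 13302 genes tested there, 1197 and 2534 were called. Wnt4 in Y against N then had an edgeR adjusted p of 0.0550. The class rests on keratins alone. Over all epithelial cells Trp63 was lower with YAP, and Krt15 and Col17a1 were low in EY2. Whether basal keratin cells are alike between groups was not tested.

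**Figure D3:**
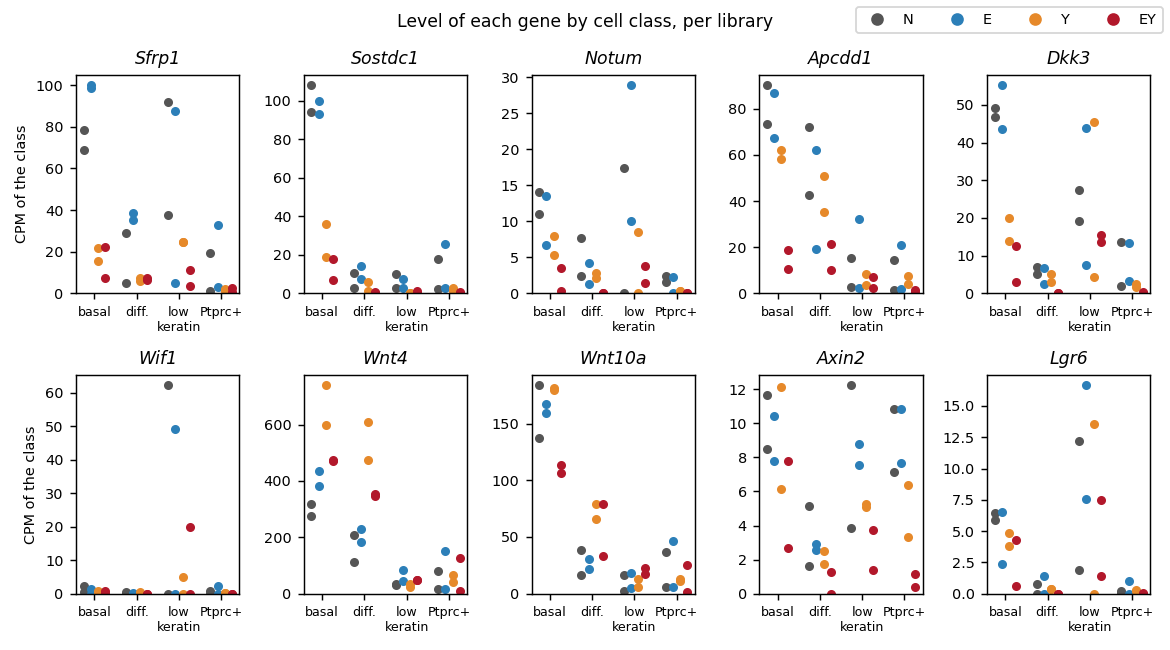
CPM (y axis, linear from 0, own scale per panel) of each gene in basal keratin cells, differentiation keratin cells, cells with keratins under 0.5% and no Ptprc, and Ptprc-positive cells; each point is 1 library, coloured by group. Sostdc1 is highest in basal keratin cells (6.72 to 108 CPM), and Wif1 is highest in low-keratin cells of N1 and E1 (62.2 and 49.1 CPM).

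Outside the epithelial cells the genes differed. Wif1 reached 62.2 CPM in the low-keratin, Ptprc-negative cells of N1, 49.1 in E1, 19.99 in EY1 and 5.09 in Y1, and had no UMI in those of N2, E2, Y2 and EY2, and the part of such cells in its epithelial values was not tested. Axin2 was 0.387 to 10.9 CPM in Ptprc-positive cells, against 2.62 to 11.05 CPM in epithelial cells before TMM scaling. Sfrp1 in Ptprc-positive cells was 0.573 to 32.8 CPM, highest in E1 and N1, the libraries with the most epithelial cells.

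To compare shares of cells at 1 depth, each cell was thinned to 2000 UMIs, which left out 0 to 2 epithelial and 1 to 17 Ptprc-positive cells of a library (Sfrp1 and all others alike), whose medians before thinning were 12575 to 23570 and 3828 to 10800.5 UMIs. A Sfrp1 UMI was then seen in 11.3 to 17.7% of epithelial cells without YAP and in 1.38 to 4.04% with it (47.8 to 65.5% and 11.2 to 21.3% before thinning), and in 0.0738 to 3.52% of Ptprc-positive cells, which should lack the gene, without YAP and 0.0641 to 0.361% with it. Within each arm the epithelial share of Sfrp1 thus lay above that of Ptprc-positive cells. Across arms they overlapped, since 1.38% of epithelial cells with YAP is below 3.52% of Ptprc-positive cells without it. Free RNA was not measured, and the source of the UMIs in Ptprc-positive cells was not tested. Sostdc1 gave 11.1 to 12.5% and 1.58 to 5.90% (Ptprc-positive cells at most 1.70%), and Dkk3 6.99 to 9.76% and 0.839 to 3.03% (at most 1.08%). Wnt4 was seen in 38.4 to 51.3% without and 42.6 to 61.4% with YAP, and in at most 10.97% of Ptprc-positive cells. Axin2 was seen in 0.904 to 2.17% of epithelial cells without and 0 to 1.40% with YAP, and in 1.77 to 3.10% and 0.120 to 2.53% of Ptprc-positive cells. These Axin2 shares overlapped, so they do not set the epithelial cells apart from the Ptprc-positive ones.

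Within a library, cells with at least 2 Yap1 UMIs were set against cells with none. This split was chosen after seeing the data, its cells are not replicates and no test was made. Only the 10 genes were read in it. How many other genes run one way in 4 of 4 libraries was not counted, so such runs are description only. The split does not sort cells by transgene. Yap1 UMIs can come from the endogenous gene, and how fully they count transgene transcripts was not measured. In the 4 libraries with the YAP transgene Sfrp1 was lower in the cells with Yap1 UMIs each time, at 14.98 against 47.4 CPM in Y1, 8.17 against 36.7 in Y2, 14.0 against 33.0 in EY1 and 7.87 against 9.92 in EY2. In the 4 libraries without it, Sfrp1 was lower in 2 and higher in 2. The cells of Y1, Y2 and EY1 without Yap1 UMIs thus lay between the cells with them and the lowest N library.

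Wnt4 ran the other way in the same 4 libraries, at 639 against 358 CPM in Y1, 844 against 204 in Y2, 532 against 304 in EY1 and 469 against 429 in EY2, and Wnt10a was also higher in all 4. Lgr6 was lower in the cells with Yap1 UMIs in all 4 libraries with YAP and higher in all 4 without, on 4 to 75 UMIs and 11 to 38 UMIs in the cells with Yap1 UMIs. Notum was likewise lower in 4 of 4 and higher in 4 of 4, but on very few UMIs in EY. Cells with Yap1 UMIs had 0 Notum UMIs against 1 in EY1, and 3 against 5 in EY2. Sostdc1, in contrast, was lower in 2 of the 4 libraries with YAP and higher in 2. Cells without Yap1 UMIs were shallower, with medians of 5343.5 against 22575 UMIs in EY1 as the widest gap. Among basal keratin cells of at least 10000 UMIs with no further immune marker, Sfrp1 was still lower in 4 of 4 and Wnt10a higher in 4 of 4, while Wnt4 was higher in 3 of 4. Notum and Lgr6 were then lower in 3 of the 4 libraries with YAP, with no UMI in EY1, and higher in 3 of the 4 without, E2 being the exception (Notum 4.88 against 8.14 CPM, Lgr6 1.88 against 2.33 CPM). The second split left 15 and 9 cells in EY1.

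**Figure D4:**
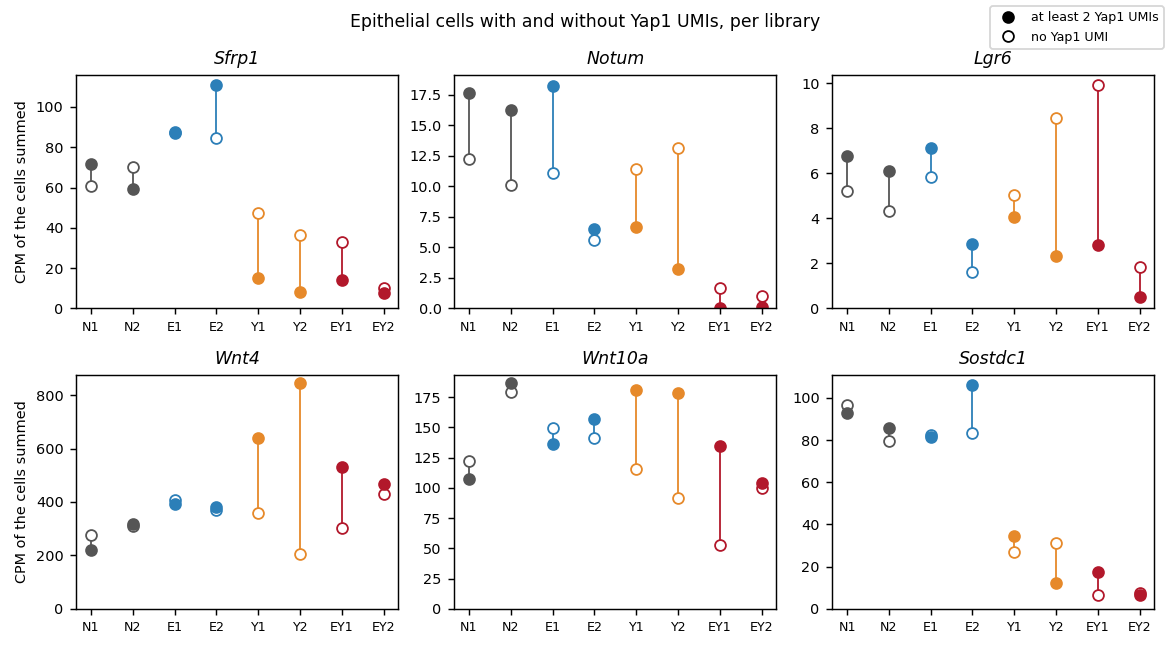
CPM (y axis, linear from 0) of epithelial cells with at least 2 Yap1 UMIs (filled) and with none (open), joined within each of the 8 libraries. Filled points lie below open ones for Sfrp1, Notum and Lgr6 in Y1, Y2, EY1 and EY2, and above them for Wnt4 and Wnt10a; Sostdc1 is split 2 and 2.

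The rest of the pathway was read from a list of 90 further genes, 64 of them tested. In the YAP effect 3 of these rose and 8 fell, with a median of -0.48, where 5.26% of all tested genes rose and 3.72% fell. In EY against N 1 rose and 18 fell, with a median of -0.72, where 9.31% of all tested genes rose and 9.5% fell. In Y against N, E against N, the E6-E7 effect and the interaction 0 of the 64 passed the edgeR test. Unlike the 10 genes, the 64 were not followed through the fits that left out a library, so how far their calls hold there is not known. In the keratin comparison 21 of 57 were higher and 5 lower in basal keratin cells, where 17.6% and 13.9% of all tested genes were.

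Among 9 other ligands tested, Wnt7b, a canonical ligand of epithelia, rose in the YAP effect. It had 15.2 and 20.3 CPM in N, 14.8 and 14.9 in E, 48.4 and 94.1 in Y, and 26.4 and 50.2 in EY, so that all libraries with YAP lay above all without (log2 1.72, SE 0.28, edgeR adjusted p = 0.0118). Wnt5a, a non-canonical ligand, fell by 0.81 (SE 0.19, adjusted p = 0.0383), and Wnt11 fell by 1.84 in EY against N (SE 0.47, edgeR adjusted p = 0.0362). Wnt11 was low throughout, at 3.24 and 2.38 CPM in N and 0.813 and 0.794 CPM in EY. Wnt3a (YAP effect -0.35) and Wnt10b (0.47) did not pass, and Wls, which carries Wnt proteins to the cell surface, was at 0.04.

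Of the other 13 listed antagonists only 3 were tested, and Kremen2, a Dickkopf receptor, rose by 2.35 in EY against N (SE 0.42, edgeR adjusted p = 0.0165), from 1.44 and 0.834 CPM in N to 6.50 and 6.04 CPM in EY. Among 14 receptors, Ryk rose by 0.49 and Fzd4 and Fzd7 fell by 1.36 and 1.35 in the YAP effect, and 5 fell in EY against N, led by Fzd7 (-1.97), Fzd4 (-1.73) and Fzd2 (-1.33). Fzd6 (YAP effect -0.26) did not pass. Of 4 genes of the R-spondin axis, Lgr4, the relative of Lgr6, fell by 1.28 in EY against N (SE 0.34, edgeR adjusted p = 0.0411). Lgr5 rested on few UMIs and did not pass, Znrf3 (YAP effect -0.53) did not pass, and Rspo1, Rspo3 and Nkd1 were too low to be tested.

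Of 24 cytoplasmic and nuclear components 4 fell in the YAP effect and 8 in EY against N, and 0 rose in either. Ctnnb1, which encodes beta-catenin, had 245 and 270 CPM in N, 216 and 249 in E, 204 and 183 in Y, and 154 and 114 in EY (YAP effect -0.61, SE 0.14, edgeR adjusted p = 0.0365), with no overlap between libraries with and without YAP. Tcf7, a TCF factor and a target, fell by 1.36 (SE 0.25, adjusted p = 0.0168). In EY against N, Tle2, a corepressor, fell by 3.39 and Tcf7l2 by 1.56. The Tle2 value rests on few UMIs, at 1.90 and 1.79 CPM in N and 0.406 and 0.142 CPM in EY. Lef1 had 47.5 and 52.9 CPM in N, 53.4 and 40.2 in E, 36.9 and 16.5 in Y, and 16.7 and 1.93 in EY, and its EY difference of -2.98 (SE 0.90) had an edgeR adjusted p of 0.0556.

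In the YAP effect the targets did not move one way: of 13 targets tested besides the 10 genes, 1 rose and 2 fell. In EY against N 0 rose and 4 fell, with a median of -1.38. Over all tested genes 5.26% rose and 3.72% fell in the YAP effect, and 9.31% rose and 9.5% fell in EY against N. Ccnd1, which drives the cell cycle, rose in the YAP effect (1.002, SE 0.20, edgeR adjusted p = 0.0244), at 204 and 226 CPM in N, 125 and 130 in E, 335 and 423 in Y, and 199 and 379 in EY, and EY1 lay below both N libraries and above both E libraries. Bambi, a pseudoreceptor that restrains TGF-beta signals, fell by 1.76 (SE 0.44, adjusted p = 0.0444), and in EY against N Ascl2, a progenitor transcription factor, fell by 2.46 (SE 0.59, edgeR adjusted p = 0.0314). Myc (-0.20) did not pass.

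**Figure D5:**
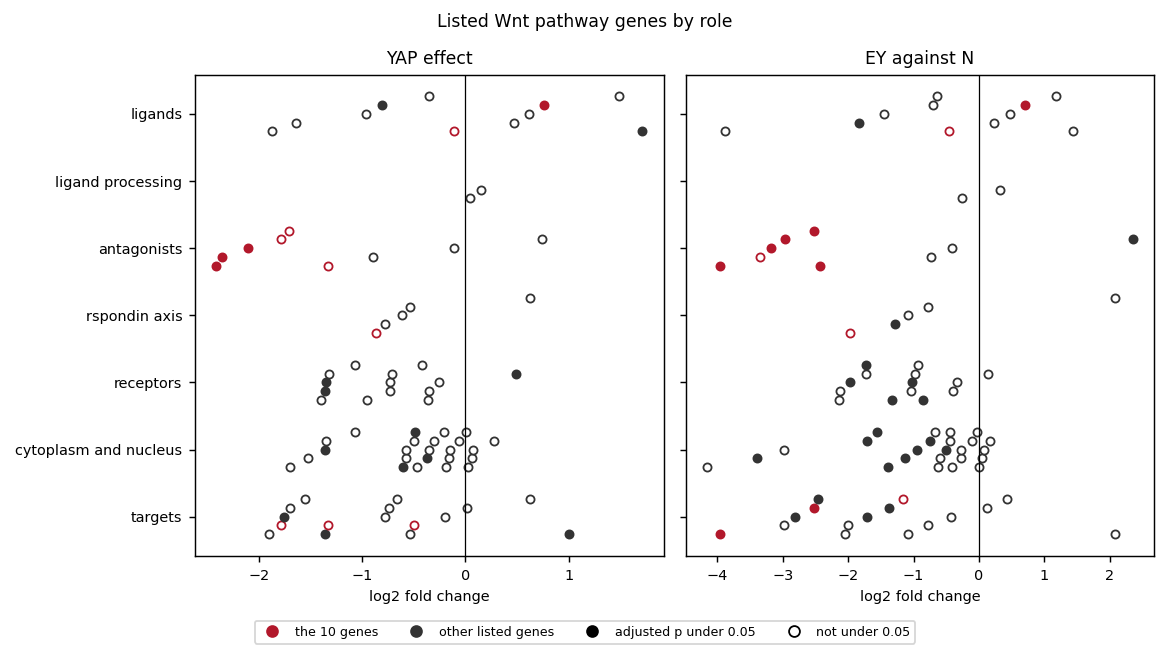
Log2 fold change (x axis) of the tested Wnt pathway genes by role (rows) in the YAP effect and in EY against N; red marks the 10 genes, filled points an edgeR adjusted p under 0.05, and vertical scatter within a row carries no value. A gene with 2 roles is drawn in both rows, and in EY against N the antagonists among the 10 lie between -2.43 and -3.96 while Kremen2 is at 2.35.

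The genes whose levels ran most like each of the 10 over the 8 libraries were taken by the root mean square difference of centred log2 CPM. Sfrp1 was nearest to Frmpd1 (0.24) and Lpar3 (0.25), Sostdc1 to Lpar3 (0.24) and Dkk3 (0.28), Dkk3 to Tbx2 (0.25) and Lypd6 (0.27), Notum to Lef1 (0.26) and Dnaic1 (0.27), and Apcdd1 to Rassf10 (0.20) and Cspg4 (0.21). Wnt4 was nearest to Rassf7 (0.15) and Wtip (0.16), Wnt10a to Ssh3 (0.088) and 2310009A05Rik (0.10), Axin2 to Rab2b (0.14) and Tmem220 (0.18), Lgr6 to Alcam (0.27) and Camk1d (0.32), and Wif1, on few UMIs, to Aff3 (0.66) and Egr3 (0.72). The 8 points share their libraries, and a small difference is a description only.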

How the data were processed

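Single viable cells of mouse tongue epithelium were profiled with a 10x Genomics 3′ droplet kit in 8 libraries, 2 per group. The labels name the v2 kit, while the methods of the study name a later version. The authors made the deposited counts with Cell Ranger 5.0.0 on the build mm10, per the submitters' processing notes; the files hold whole UMI counts per gene and barcode, not normalised. Cells were kept as in the study, with 1000 to 5500 genes, no more than 30000 UMIs and a mitochondrial share of up to 7%, and then by the keratin and Ptprc rule. UMIs were summed per library, so that the library was the replicate, and tested with edgeR 4.0.16 (filterByExpr, TMM, glmQLFit and glmQLFTest, all 4 groups in one fit, adjusted p under 0.05) in R 4.3.3. DESeq2 1.42.0 was an alternative, and Python, numpy, scipy, pandas and matplotlib read and plotted the files. The scripts were tested on simulated counts. The 10 genes and all lists were chosen with earlier results of these data known. The text names all 10 genes, pathway genes by role (in each role the 3 with the largest change among those called, and 14 further genes whatever their values), and the 2 nearest genes of each. Gene positions came from GENCODE on GRCm38, which held 99.8% of identifiers. Shares and floors cover counting error only. The alternatives were other normalisation, filters, cell limits, keratin thresholds, immune-marker cells, basal keratin cells, and each library left out; a pair of libraries left out together and the second Yap1 split were chosen after seeing the data.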

Additional observations from a re-analysis of the deposited data

Results flagged for a closer look

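The effect of E6-E7 on Wnt4 was singled out because it ran in opposite directions without and with the YAP transgene. How many of all tested genes show such a reversal was not counted, so it is description only. Wnt4 was higher in both E libraries (389 and 356 CPM) than in both N libraries (261 and 324), and lower in both EY libraries (465 and 491) than in both Y libraries (595 and 713). The interaction was -0.80 on the log2 scale (SE 0.23, unadjusted p = 0.00870, edgeR adjusted p = 0.349), so it did not pass over all genes tested. The difference of E from N in Wnt4 did not pass either.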

How the results depend on the processing

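No paired analysis was possible because replicate numbers were given in accession order and the animal numbers in the titles are not shared between groups. Of the 10 genes, the YAP effect called 4, and 7 with no filter on low counts or 8 with no upper cell limits (1217, 3250 and 6131 over all genes; DESeq2 6 and 2762). The E6-E7 effect called 0, and 3 with no filter (55 and 765 over all genes; DESeq2 293). Y against N called 1, and 4 with no filter, with keratins at 2% or by DESeq2, 6 with no upper limits, 2 without cells holding further immune markers or without EY1 and Y1 together, and 0 in basal keratin cells only (62 over all genes, 35 to 1504). The interaction called 0, and 4 with no filter and 1 by DESeq2 (0, 672 and 89 over all genes). E against N called 0 throughout (33 over all genes, 367 with no filter, 131 by DESeq2), and the keratin comparison 8 to 10 (3486 over all genes, and 2829 to 5341 under the other settings). EY against N called 6, and 6 to 9 under the other settings (2550 over all genes, 6042 with no upper limits and 4273 with no filter).

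Leaving out 1 library gave 2 to 4 calls in the YAP effect (2 without E1 or Y2; 324 to 1707 over all genes), 0 to 8 in EY against N (0 without N1 or EY2, 2 without N2 and 8 without EY1; 5 to 4061 over all genes), 0 to 1 in Y against N, 0 in the E6-E7 effect, E against N and the interaction, and 8 to 9 in the keratin comparison; the lone library of a group is then taken to vary like the others. Without EY1 and Y1 together 3 genes were called in the YAP effect and 8 in EY against N. The cause of these changes was not tested.

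Changes of sign touched only values that had not passed, given here in log2 with the range over fits that left out 1 library. In E against N, Notum was 0.077 with no upper limits and -0.93 to 0.011 over the left-out libraries, Apcdd1 0.20 and -0.38 to 0.075, Dkk3 0.0016 without further immune markers and -0.26 to 0.17, Wnt10a -0.35 to 0.31, and Wif1 -8.00 to 0.20. In Y against N, Wnt10a was -0.13 to 0.53 and Axin2 -0.78 to 0.24. In the E6-E7 effect Sfrp1 was -0.0034 with at least 200 genes per cell, -0.010 without further immune markers, -0.013 in basal keratin cells, -0.020 without EY1 and Y1, and -0.17 to 0.34 over the left-out libraries, and Wnt4 was 0.055 without EY1 and Y1 and -0.18 to 0.092. In the interaction Wif1 was 0.38 by DESeq2 and -1.98 to 6.24, and Lgr6 -2.04 to 0.55. EY1, with 170 epithelial cells, limits the depth of EY.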

Other observations

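Cells were also divided within each library by cycling UMIs, as a description with no test. Cycling cells had at least 2 UMIs of Mki67, Top2a, Cdk1, Ccnb1 and Birc5 together, and were set against cells with none. Only the genes followed above were read in this split. The share of other genes that run alike in as many libraries was not counted, so such runs are description only. Wnt10a was higher in cycling cells in 7 of 8 libraries, E1 being the exception, and Lgr6 was lower in 7 of 8, E2 being the exception. Wnt4 was lower in cycling cells in all 4 libraries with the YAP transgene, at 461 against 669 CPM in Y1, 524 against 997 in Y2, 439 against 506 in EY1 and 454 against 673 in EY2, and lower in 2 and higher in 2 of the libraries without it. Apcdd1 and Notum were also lower in cycling cells in 4 of 4 libraries with YAP and split 2 and 2 without. For Notum this rested on 3 UMIs in cycling cells against 2 in EY1, and 9 against 1 in EY2. The cycling cells were deeper in 6 of the 8 libraries.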
